A study of Mus musculus with 2 samples.

Results

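Laminins and nidogens are the proteins that build and join the laminin network of basement membranes, and 9 of their genes were measured in kidney RNA from adenine-fed mice given HMPA, set against adenine-fed mice without it. The genes are the laminin alpha chain genes Lama1, Lama3, Lama4 and Lama5, the beta chain genes Lamb1 and Lamb2, the gamma chain gene Lamc1, and the nidogen genes Nid1 and Nid2. They were taken by gene symbol from the array design, which holds 13 probes for them among 41174, each printed as 1 spot. All 9 had a probe that passed the filter on dim signal, among 16698 genes that did. With HMPA, Nid1, Lamc1 and Lama5 were lower by 2.39-fold to 2.66-fold. Lamb1, Lama4 and Lamb2 had ratios short of 2-fold in the same direction, and Nid2 lay nearer to no difference. Lama3 and Lama1, both read by dim probes, had mean ratios slightly above 0, and for Lama1 no direction can be read.

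The HMPA condition was kidney of male CD-1 mice on an AIN-93G diet with 0.2% adenine by weight plus 2% HMPA by weight, for 1 week. HMPA is a phenolic compound, a hydroxylated and methoxylated phenylpropionic acid. The other condition was the same strain, sex and diet with 0.2% adenine and no HMPA, so both conditions carried the adenine injury, a model of chronic kidney disease, and kidneys from mice without adenine were not analysed here. The protocol gives a starting age of 7 weeks, while the titles give 12 weeks of age and 5 mice without saying whether RNA was pooled. Each of 2 arrays carried both RNAs in opposite dyes, HMPA in red (Cy5) on array 1 and in green (Cy3) on array 2. No separate animals or extracts are named per array, so the pair was treated as 1 RNA sample per condition read with both dye orientations. The differences therefore have no replicate check and carry no p-value, and the spread between mice is unknown.

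A laminin is a cross-shaped trimer of an alpha, a beta and a gamma chain, secreted by the cells that stand on the membrane. Trimers polymerise through their short arms, bind integrins and dystroglycan on cells through the end of the alpha chain, and are linked by nidogens, which bind the gamma chain arm, to the collagen IV network and to perlecan. In kidney, Lama5 and Lamb2 chains with Lamc1 make the mature laminin of the glomerular membrane, Lamb1 serves most tubule and vessel membranes, Lama4 is made mainly by endothelial and mural cells, Lama1 is found in tubule membranes, and Lama3 belongs to the laminin of hemidesmosomes that epithelia make. The arrays read whole-kidney RNA, in which fewer cells of a type and less RNA per cell cannot be told apart.

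Each value comes from a probe of 60 bases, and the probes are shown because what each ratio measures is the RNA that pairs with those bases. The first 2 are Lama4 probes. Capitals mark 29 bases that they share, so they are not independent readings of the gene. The Lamb1 and Lamb2 probes read the paralogous beta chain genes. For Nid1, Lamc1 and Lama5, which had the lowest ratios, the first 30 bases of the probe are shown. Bases run 5′ to 3′ as in the array files.
Lama4, probe at chr10:38825794-38825853: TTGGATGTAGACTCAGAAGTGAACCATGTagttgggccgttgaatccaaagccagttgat
Lama4, probe between chr10:38825032 and 38825822: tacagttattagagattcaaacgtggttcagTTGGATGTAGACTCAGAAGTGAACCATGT
Lamb1, probe between chr12:32012684 and 32014030: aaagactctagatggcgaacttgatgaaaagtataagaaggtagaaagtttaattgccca
Lamb2, probe at chr9:108392189-108392248: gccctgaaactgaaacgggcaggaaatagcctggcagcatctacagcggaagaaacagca
Nid1, probe at chr13:13604417-13604476, first 30 bases: tgcttattaatggttctccagatgtataca
Lamc1, probe at chr1:155066154-155066213, minus strand, first 30 bases: tgtggcccttttcaatgtgccttcacttta
Lama5, probe at chr2:179911062-179911076, minus strand, first 30 bases: cactttctatgaataacaagtcatttctgg

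Positions are those of the array files on mouse build mm9, on the plus strand unless stated. Exons and UTRs are not assigned, for want of gene models on mm9. The Lama4 probe between 38825032 and 38825822 and the Lamb1 probe cover 791 and 1347 bases of genome with 60 bases of probe. The file gives a stretch of only 15 bases for the Lama5 probe, which is shorter than the probe.

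The signals quoted next are normalised brightness in arbitrary units, on a linear scale that includes an added offset of 50, and the Lama4 probe that did not rise above background read 55.1 to 55.9. Signals of different probes cannot be compared. Ratios are HMPA over adenine alone on the log2 scale, and ± gives how far either array lay from the mean of both. Over all genes the median distance was 0.11 and the 95th percentile 0.38. A gene was counted as lower or higher by size: its mean ratio had to reach 2-fold, and both arrays had to show 1.5-fold or more the same way.

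Nid1, the nidogen that ties laminin to collagen IV in most basement membranes, had the lowest ratio of the 9 genes. Its signal was 1839 on array 1 and 1979 on array 2 with HMPA, against 5127 and 5023 with adenine alone. Both HMPA readings lay far under both adenine readings, with 1 RNA sample per condition read on both arrays. The ratio was −1.41 ± 0.068, or 2.66-fold lower. Only 3.80% of the 16698 genes had a ratio this low or lower.

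Nid2, the second nidogen, shares the laminin-binding role of Nid1. Its signal was 318 and 309 with HMPA, against 372 and 389 with adenine alone. The order was the same on both arrays, but the gap was small, with a ratio of −0.28 ± 0.051 (1.21-fold). The ratio of Nid1 minus that of Nid2 was −1.25 on array 1 and −1.01 on array 2, a mean of −1.13 ± 0.12, so the paralogs differed by much more than the arrays did.

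Lamc1 encodes the gamma chain shared by most laminin trimers and carries the nidogen binding site. Its signal was 947 and 844 with HMPA, against 2081 and 2394 with adenine alone. The ratio was −1.32 ± 0.18, or 2.50-fold lower, with −1.14 on array 1 and −1.50 on array 2. Lamc1 and Nid1, whose products bind each other, had ratios 0.34 apart on array 1 and 0.16 apart in the opposite direction on array 2.

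**Figure D1:**
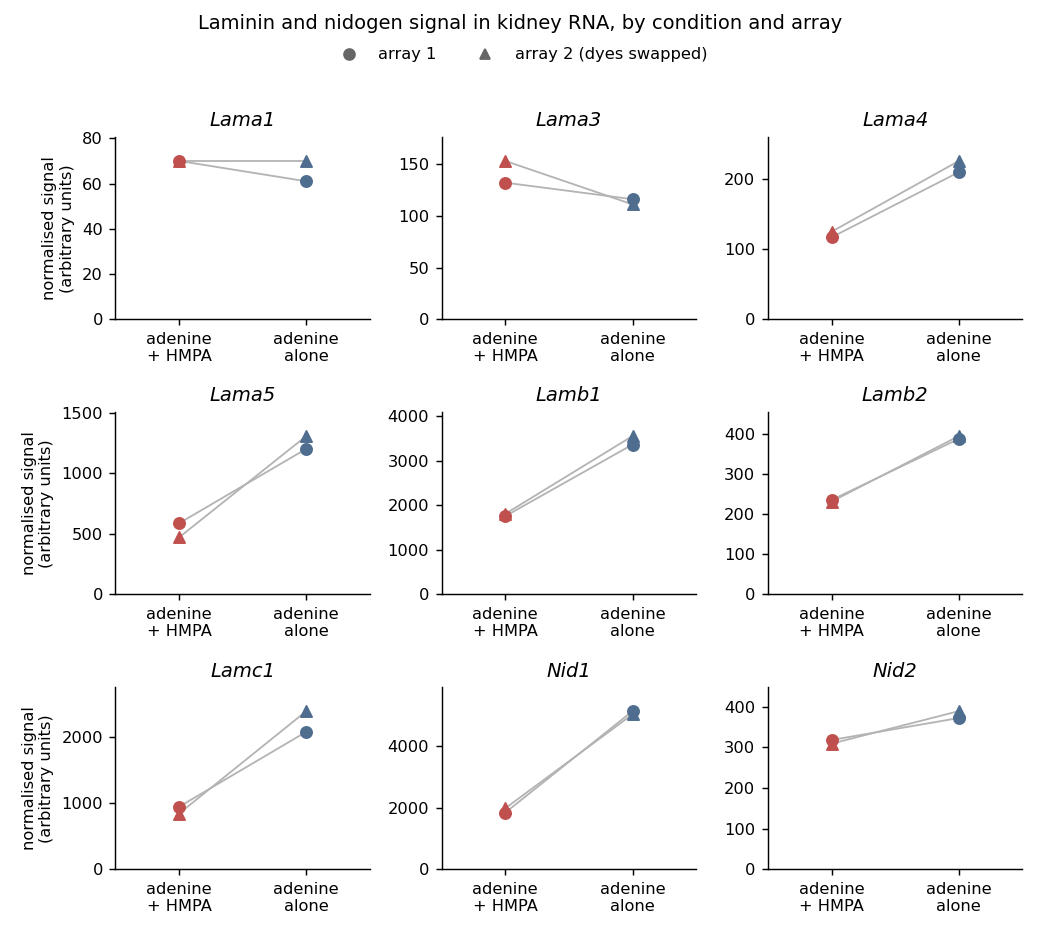
Normalised signal (arbitrary units, linear axis from 0, with an offset of 50 added) of each gene in the sample with adenine plus HMPA (left, red) and with adenine alone (right, blue); circles are array 1, triangles array 2, and grey lines join the 2 samples of an array. Nid1, Lamc1, Lama5, Lamb1, Lama4, Lamb2 and, less steeply, Nid2 slope upward to adenine alone on both arrays, while Lama1 and Lama3 do not.

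Lama5 encodes the alpha chain found in nearly all adult kidney basement membranes. Its signal was 587 and 470 with HMPA, against 1202 and 1308 with adenine alone. The ratio was −1.26 ± 0.22, or 2.39-fold lower, with the widest distance between arrays of the 9 genes (−1.04 and −1.48). The rule was met on either array alone.

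Lamb1 and Lamb2 encode beta chains that exclude each other within a trimer. Lamb1 had a signal of 1755 and 1806 with HMPA, against 3362 and 3553 with adenine alone, and a ratio of −0.96 ± 0.019 (1.94-fold). Lamb2 had 236 and 232 with HMPA, against 389 and 396 with adenine alone, and a ratio of −0.75 ± 0.023 (1.68-fold). Both genes read lower with HMPA on both arrays and both stopped short of 2-fold. Lamb1 minus Lamb2 was −0.21 on each array, and the size of this gap depended on the processing. Lamb1 and Lamb2 had −0.95 and −0.86 with an offset of 10, −0.93 and −0.79 with the software's ratios, and −1.14 and −1.08 with median centring. Neither probe was printed more than once. Among 165 probes printed 10 times and above background in all 4 channels, repeat spots had a median SD of 0.144 on array 1 and 0.135 on array 2.

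Lama4 encodes the short alpha chain of vessel and muscle laminins. Its brightest probe had a signal of 117 and 125 with HMPA, against 210 and 226 with adenine alone, and a ratio of −0.85 ± 0.0049 (1.80-fold). The probe that shares 29 bases with it had 93.2 and 88.3 with HMPA, against 127 and 160 with adenine alone, and a ratio of −0.65 ± 0.21. The third kept probe, with no shared bases, sat close to the offset, at 63.8 and 61.5 with HMPA against 70.1 and 71.8 with adenine alone, and gave −0.18 ± 0.045. The remaining probe was not well above background in either condition on either array.

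The size of the Lama4 ratio depended on the processing. With an offset of 10 instead of 50 the same 3 probes gave −1.15, −1.02 and −0.47, and with the ratios that the array software computed, −1.32, −1.29 and −0.99. Lama4 then met the rule of size, as it also did without background correction (−1.06) and with median centring (−1.15). All 3 probes had ratios below 0 as reported, with the offset of 10 and with the software's ratios.

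Lama3 encodes the alpha chain of the hemidesmosome laminin. Its brightest probe lies on chromosome 18 from 12741036 to 12741095. Its signal was 132 and 153 with HMPA, against 116 and 111 with adenine alone, and the ratio was 0.32 ± 0.14 (1.25-fold). Of the 9 genes it was the only one above 0 on both arrays, and it stayed short of the rule under all 9 alternatives, from 0.053 with median centring to 0.64 with the software's ratios. A second probe was well above background only on array 2 and had a ratio of −0.0046.

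Lama1 encodes the alpha chain of embryonic and some tubule membranes. Its probe lies on chromosome 17 between 68167016 and 68167978 and was dim. The signal was 69.8 and 70.0 with HMPA, against 61.1 and 70.2 with adenine alone, and on array 1 the adenine sample was not well above background. The ratio was 0.094 ± 0.099, with 0.19 on array 1 and −0.0048 on array 2, so no direction can be read from it. With the software's ratios it was 0.85, still short of the rule.

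**Figure D2:**
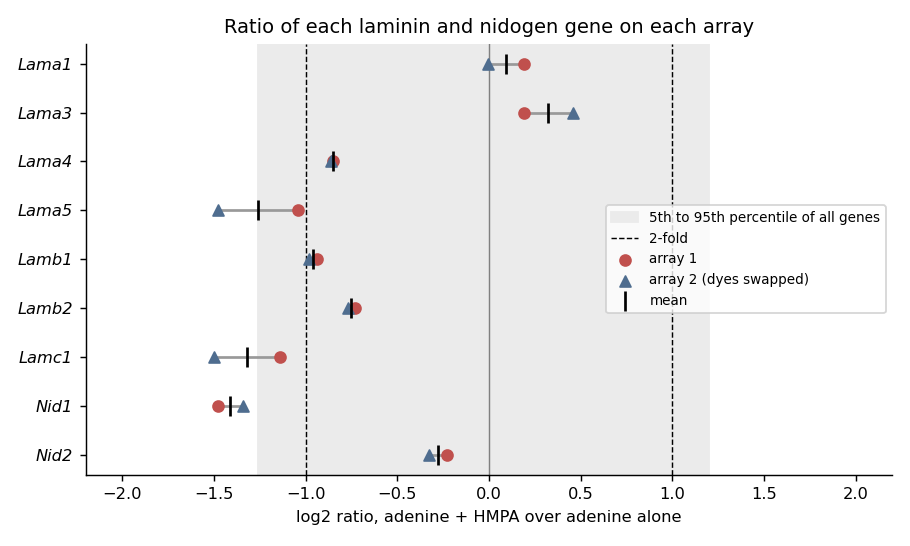
Log2 ratio of adenine plus HMPA over adenine alone for each gene; circles are array 1, triangles array 2, black ticks the mean of both, dashed lines 2-fold, and the grey band runs from the 5th to the 95th percentile of all 16698 genes (−1.26 to 1.20). Nid1 and Lamc1 have means outside the band and Lama5 lies at its edge, while the means of Lama3 and Lama1 lie right of 0.

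By the rule of size, 3 of the 9 genes were lower and 0 were higher. Over all 16698 genes, 7.72% met it as lower, 6.64% as higher and 14.4% in either direction. Of the 9, 7 had a ratio below 0 on both arrays, and over all genes 42.9% did. The median of the 9 ratios was −0.85, and −0.85 and −0.86 on the 2 arrays alone, beside a median of −0.04 over all genes. The ratios ran in this order, lowest first: Nid1, Lamc1, Lama5, Lamb1, Lama4, Lamb2, Nid2, Lama1 and Lama3. Nid1, Lamc1 and Lama5 overlap within the distance between arrays, and Lamb1, Lama4 and Lamb2 lie close together between −0.96 and −0.75, whereas the steps from Lamb2 to Nid2 and from Nid2 to Lama1 are wider than either gene's array distance.

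The balance of higher and lower genes on these arrays depended on the scaling: of the genes that met the rule, 46.2% were higher with loess and 27.5% with median centring, under which the median of all genes was −0.22 in place of −0.04. With median centring 6 of the 9 genes met the rule, adding Lama4, Lamb1 (−1.14) and Lamb2 (−1.08). Set against the median of all genes, the median of the 9 was −0.81 with loess and −0.92 with median centring, so the group lay under the array's median either way.

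**Figure D3:**
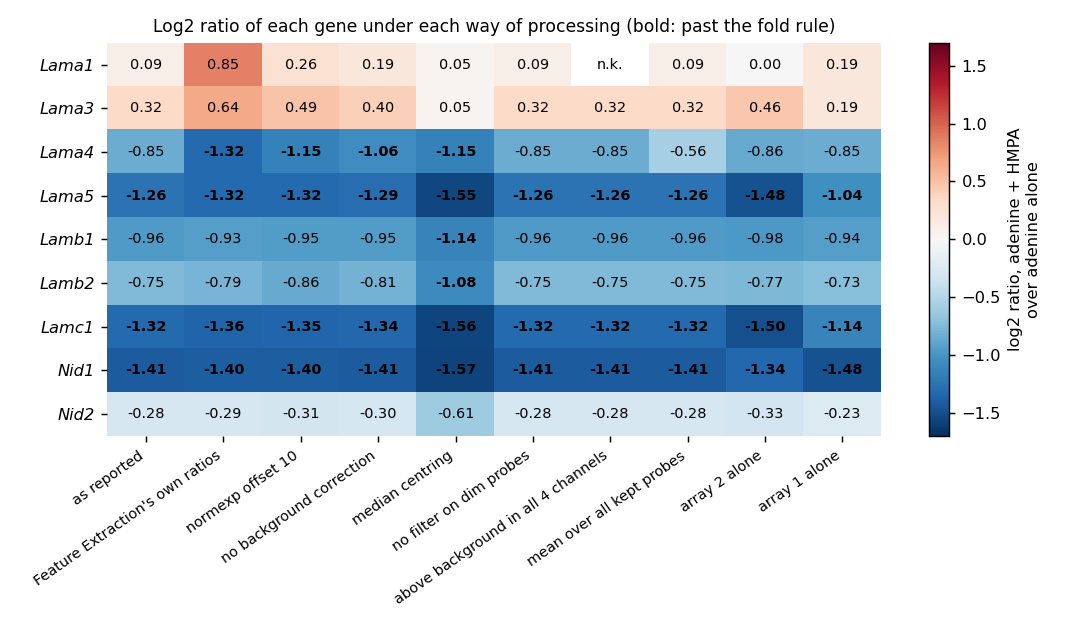
Log2 ratio of adenine plus HMPA over adenine alone for each gene (rows) as reported and under 9 other ways of processing (columns), by colour and number; bold means past the rule of size and n.k. means not kept by that filter. Nid1, Lamc1 and Lama5 are past the rule in all 10 columns, Lama4 in 4, Lamb1 and Lamb2 only with median centring, and Lama1, Lama3 and Nid2 in none.

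Among other genes of the laminin family, the laminin chain genes Lamb3 and Lama2 had ratios below 0, and the netrin gene Ntn1 had a ratio above 0. Of 6 such genes 5 were measured, with a median of −0.57 and 0 higher by the rule. Lamb3, the beta chain that joins Lama3 in hemidesmosome laminin, was −0.57 ± 0.12, and past the rule with the software's ratios (−1.88) and with an offset of 10 (−1.17). Lama2, the alpha chain of muscle and mural laminins, was −0.99 ± 0.029, at the edge of the rule, from 10 repeat spots with an SD of 0.13 on array 1 and 0.10 on array 2. Lama2 met the rule with the software's ratios (−1.21), an offset of 10 (−1.17), no background correction (−1.11), median centring (−1.33) and array 2 alone (−1.02), and its second probe gave −0.71. Netrin 1 (Ntn1), a laminin-related guidance protein, was 0.69 ± 0.16, and 1.16 with the software's ratios, past the rule.

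Receptors of laminin also had ratios mostly below 0. Of 12 measured, 4 were lower (4 to 7 over the alternatives) and 0 higher, 11 were below 0 on both arrays, and the median was −0.95. Syndecan 1 (Sdc1), a heparan sulfate proteoglycan of epithelia, had the lowest ratio (−2.02 ± 0.20). The integrin beta subunit of hemidesmosomes, Itgb4, followed (−1.87 ± 0.16, and −1.86 from a second probe). Bcam, which binds the Lama5 chain, was −1.58 ± 0.43, and dystroglycan (Dag1) was −1.25 ± 0.065, although a second Dag1 probe gave −0.76. The integrin subunits Itgb1 (−0.97 ± 0.00023, mean of 10 spots on each array) and Itga3 (−0.93 ± 0.19) stopped just short. Itgb1 met the rule with an offset of 10 (−1.01), median centring (−1.24) and the mean over all kept probes (−1.05). Itga3 met it with the software's ratios (−1.12), an offset of 10 (−1.08), no background correction (−1.04), median centring (−1.27) and array 1 alone (−1.12), while its other probes gave −0.85 and −0.14. Rpsa (−0.98 ± 0.31) is uncertain, since its second probe gave 0.24, and it met the rule with the software's ratios (−1.04), median centring (−1.15) and array 2 alone (−1.28).

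Many partners of laminin and nidogen in the basement membrane were lower. The median of 18 measured genes was −1.42, with 10 lower and 1 higher. The calcium-binding matrix protein Sparc (−2.29 ± 0.21) and the nidogen-binding fibulin Fbln2 (−2.07 ± 0.16) had the lowest ratios. The collagen IV chains split: Col4a1 (−1.87 ± 0.13) and Col4a2 (−1.44 ± 0.14), which form the network of most basement membranes, were lower, while Col4a3 (0.95 ± 0.20) and Col4a4 (0.46 ± 0.28) of the mature glomerular membrane had ratios above 0 on both arrays and Col4a5 was −0.097 ± 0.034. The 2 other kept Col4a1 probes gave −1.47 and −0.22, and the mean over all its kept probes was −1.19, still past the rule. Perlecan (Hspg2, −1.39 ± 0.33) and agrin (Agrn, −1.85 ± 0.29), proteoglycans that bind laminin and nidogen networks, were lower, although a second Agrn probe gave −0.19. Col15a1, Smoc2, Col18a1 and Fbln1 completed the lower genes, between −1.83 and −1.50, with a second Col15a1 probe at −0.95. Pxdn (−0.86 ± 0.16), an enzyme that crosslinks collagen IV, and Col4a6 (−0.70 ± 0.30) stopped short. Pxdn met the rule with median centring (−1.19) and on array 1 alone (−1.02), and Col4a6 with the software's ratios (−1.15) and on array 2 alone (−1.01), while a second Col4a6 probe gave 0.11. Tinag, an antigen of tubule basement membranes that binds laminin, was higher (1.10 ± 0.087), but 0.97 and short of the rule with median centring.

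Genes for enzymes known to cut laminin or nidogen, and for their inhibitors, went both ways. Of 18 measured, 12 were lower and 2 higher (median −1.80). Among the lower were the protease genes Ctss (−3.04 ± 0.41), Mmp14 (−3.03 ± 0.075) and Mmp7 (−2.85 ± 0.48) and the inhibitor genes Timp1 (−3.35 ± 0.15) and Timp2 (−3.06 ± 0.15). Mmp3, Adamts1, Bmp1, Mmp2, Plat and Mmp12 were lower too, between −2.79 and −1.30. Second probes gave −0.52 for Bmp1 and −0.92 for Plat. Ctsb (−0.68 ± 0.098), Plau (−0.62 ± 0.098) and the inhibitor gene Timp3 (0.62 ± 0.34) stopped short of the rule. Both meprin genes of the proximal tubule brush border, Mep1a (2.10 ± 0.22) and Mep1b (3.40 ± 0.19), were higher.

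**Figure D4:**
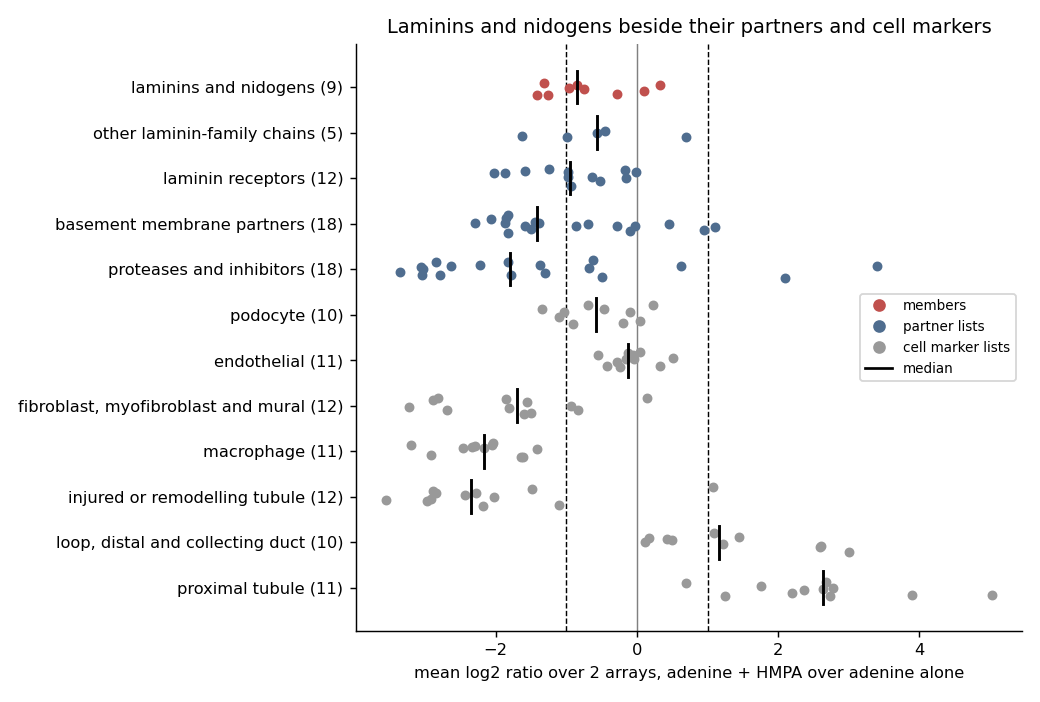
Mean log2 ratio of adenine plus HMPA over adenine alone for every measured gene of 12 lists (number of genes in brackets); each dot is a gene, black bars are medians and dashed lines mark 2-fold. The 9 laminins and nidogens have a median of −0.85, between the endothelial markers at −0.12 and the fibroblast and mural markers at −1.71.

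Markers of kidney cell types moved with the condition to different extents, and their part in the laminin and nidogen ratios was not tested. Of 12 markers of fibroblasts, myofibroblasts and mural cells, 9 were lower and 0 higher (median −1.71), and 8 to 11 were lower over the alternatives. Short of the rule were Lum (−0.94 ± 0.23) and the mural markers Rgs5 (−0.83 ± 0.29) and Myh11 (0.14 ± 0.15). Summed signals of the list were 22676 and 18258 with HMPA against 126927 and 117683 with adenine alone. All such sums follow the brightest probes of a list and do not measure a cell type. Col1a2 gave 42322 of the sum with adenine alone on array 1. Of 12 markers of injured or remodelling tubules, 11 were lower and 1, Havcr1, higher (1.07, but 0.76 and short of the rule with median centring; median of the list −2.36), with sums of 25321 and 21562 with HMPA against 164458 and 154541 with adenine alone. All 11 macrophage markers were lower (median −2.16), or 10 with the mean over all kept probes, where Csf1r had −0.79. Their sums were 14634 and 13261 with HMPA against 90331 and 86243 with adenine alone. With adenine alone on array 1, Spp1 gave 104147 of the injured tubule sum and Lyz2 58839 of the macrophage sum. The medians of these 3 lists lay further under 0 than the −0.85 of the laminins and nidogens, whose own summed signals were 6000 and 5988 with HMPA against 12922 and 13471 with adenine alone.

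Endothelial markers were close between conditions, podocyte markers were lower in part, and most markers of tubule segments were higher. Here too their part in the laminin and nidogen ratios was not tested. None of 11 endothelial markers met the rule (median −0.12), and their summed signals were 13808 and 14653 with HMPA against 17024 and 16537 with adenine alone. Of 10 podocyte markers 3 were lower (2 to 5 over the alternatives), among them Tcf21 and Synpo (a second Synpo probe gave 0.061), and 0 higher (median −0.58, sums of 4275 and 3994 with HMPA against 7867 and 6826 with adenine alone), while the slit diaphragm gene Nphs1 had 0.048 ± 0.19. Synpo missed the rule on array 1 alone (−0.94) and Tcf21 on array 2 alone (−0.96). Of 11 measured proximal tubule markers 10 were higher, and 9 with median centring (median 2.64, sums of 267338 and 276718 with HMPA against 37237 and 47339 with adenine alone). Of 10 markers of the loop, distal tubule and collecting duct, 6 were higher, and 5 with median centring, the mean over all kept probes or array 1 alone (median 1.16, sums of 57048 and 58891 with HMPA against 37394 and 43693 with adenine alone). All markers measured in these 7 lists had a probe well above background in both conditions on both arrays. The filter already required this of 1 condition, and 15254 genes in all met it in both, so it says little about the tissue.

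The promoters of Nid1 and Lama5, both lower, are shown as examples from the 4 of 9 genes that the promoter table held, as RefSeq gives them for the 250 bases before the start of the gene on build GRCm38.p6. Capitals mark GGGCGG, the core of the binding site of Sp1 factors, and CCAAT, each searched on both strands. The motifs TGANTCA, of AP-1 factors, and TATAAA were searched too and did not occur in any of the 4 windows.
Nid1, chr13:13437352-13437601, plus strand: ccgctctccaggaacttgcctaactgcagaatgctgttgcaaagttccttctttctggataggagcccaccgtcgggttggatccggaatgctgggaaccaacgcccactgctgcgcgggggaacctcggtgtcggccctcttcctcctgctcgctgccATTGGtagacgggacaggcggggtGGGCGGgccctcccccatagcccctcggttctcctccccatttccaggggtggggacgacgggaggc
Lama5, chr2:180225860-180226109, minus strand: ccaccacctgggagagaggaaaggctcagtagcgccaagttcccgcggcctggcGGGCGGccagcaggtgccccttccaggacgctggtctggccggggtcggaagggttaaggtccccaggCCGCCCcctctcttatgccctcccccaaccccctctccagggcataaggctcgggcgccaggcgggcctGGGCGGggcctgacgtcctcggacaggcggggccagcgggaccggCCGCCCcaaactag

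The Nid1 window held 1 GGGCGG and 1 CCAAT, and the Lama5 window held 4 GGGCGG and 0 CCAAT. Of the windows not printed, Lamb1 held 2 GGGCGG and 1 CCAAT, and Lamb2 held 0 of every motif searched. GC content was 64.4% for Nid1, 72.4% for Lama5, 62.0% for Lamb1 and 43.6% for Lamb2. Of 32851 windows of the same length in the table, 32.7% held GGGCGG, 33.8% CCAAT, 6.75% TGANTCA and 12.4% TATAAA. Matches of these letters are descriptions of sequence and show no binding.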

How the data were processed

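Kidney RNA of 2 conditions was read on 2 dual-colour Agilent arrays of 1 slide and 1 scan, with dyes swapped. Per the file headers, the deposited signal and background columns are intensity values without normalization, from Feature Extraction 12.2.0.7 (the submitters' processing notes name 9.5). Per the file headers, each deposited log10 ratio sets red against green once the software has subtracted background and balanced the dyes. The authors' deposited value table repeats these log10 values to within 0.00499, not turned for the swap, with a median of 0 on each array; flags of 0 or 1 per spot, which are in no unit, were also used. Of 43379 gene spots, 281 and 297 were flagged as unreliable and 0 saturated, and 57.9% to 67.9% per channel were well above background; the number of arrays limits the precision.

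With limma 3.58.1 in R 4.3.3, background was corrected by normexp (offset 50), control and flagged spots were given weight 0, and arrays were normalised by loess. Channel signals also had average intensities quantile-normalised between arrays. A probe was kept if well above background in 1 condition on both arrays (25138 of 41174), and the brightest kept probe stood for a gene. The members and lists were chosen with earlier results of these data known. Named genes are all members with every probe, and, from each pathway list, those past the rule and up to 3 others by size; Col4a4, Col4a5 and the marker genes were named after their values were seen. Further processing used Python 3.11.15 with pandas 2.3.3. The procedure was tested on simulated data. A total of 9 alternatives were tried. Some genes and 1 probe sequence are not reported here.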

Additional observations from a re-analysis of the deposited data

How the results depend on the processing

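Nid1, Lamc1 and Lama5 met the rule of size under each of the 9 alternatives, with ranges of −1.57 to −1.34, −1.56 to −1.14 and −1.55 to −1.04. Nid2 (−0.61 to −0.23), Lama3 (0.053 to 0.64) and Lama1 (−0.0048 to 0.85) met it under none of those run; Lama1 was not kept where all 4 channels had to be above background. The median of the 9 genes was −0.93 with the software's own ratios, −0.95 with an offset of 10, −0.95 without background correction, −1.14 with median centring, −0.90 with genes above background in all 4 channels and −0.75 with the mean over all kept probes, which averages dim Lama4 probes in. With median centring 6 of the 9 met the rule as lower, and 1973 genes in all. With the software's ratios 2461 genes were lower and 2043 higher, against 1289 and 1109 as reported. Basement membrane partners met the rule as higher in 2 cases with the software's ratios, an offset of 10, no background correction, the mean over all kept probes and array 2 alone (1 to 2 over the arrays alone), and in 0 with median centring; the second is Col4a3. Each array alone gave 3 lower genes of the 9. The cause of these changes was not tested. Each ratio paired the 2 conditions within an array, but no test was made. The labels do not say whether the arrays hold separate RNA, and the arrays were treated as 1 RNA sample per condition. Dim probes limit Lama1, Lama3 and Lama4: the offset pulls their ratios toward 0.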
